A study of Arabidopsis thaliana with 6 samples.

Results

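The beta-amylase family of Arabidopsis thaliana comprises the genes BAM1 to BAM9, which were taken by their locus identifiers and make up 9 of the 33602 genes in the expression files. They were compared between seedlings of the toc1-21 prr5-1 double mutant (3 libraries) and of the Col-0 accession (3 libraries). The mutant is labelled homozygous and carries the toc1-21 allele of TOC1 together with the prr5-1 allele of PRR5, both genes for pseudo-response regulators of the circadian clock. Whole seedlings aged 10 d, grown at 22 °C in long days on MS medium containing 3% sucrose, were taken at ZT15 in both genotypes. The nature of each allele, the accession in which it arose and the hours of light per day were not given in the sources used here. The series asks which transcripts differ when both clock genes are mutated, and the files hold RPKM, a read level scaled to gene length and to library depth.

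Beta-amylases release maltose from the ends of glucan chains, and in leaves they carry out much of the breakdown of starch at night. Members differ in where they act: some are plastid enzymes, BAM5 is cytosolic, BAM7 and BAM8 are nuclear and carry a DNA-binding domain of the BZR1 type, and others have lost catalytic activity. Starch turnover in Arabidopsis leaves is paced by the circadian clock.

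In the mutant seedlings at ZT15, 1 member of the family was higher, none was lower and 8 did not pass the test. Only ZT15 was sampled, so a changed level and a shift in daily timing cannot be told apart. BAM9, a non-catalytic member described in Arabidopsis as a partner that raises the activity of the alpha-amylase AMY3, averaged 24.2 ± 1.05 RPKM in toc1-21 prr5-1 and 14.1 ± 0.994 RPKM in Col-0 (SD, n = 3 each), a ratio of means of 1.71. BAM3, the main plastid enzyme of night-time starch breakdown in leaves and the most abundant member, averaged 83.9 ± 11.6 RPKM in the mutant and 98.0 ± 5.74 RPKM in Col-0 (SD, n = 3 each), with a limma adjusted p of 0.238 that did not pass. All 9 genes had at least 1 RPKM in at least 3 libraries and were therefore tested. A gene was called when its adjusted p from limma on log2(RPKM + 1), with Benjamini-Hochberg adjustment over all 19710 tested genes, was under 0.05. By this rule 10.6% of all tested genes were called, 3.90% as higher and 6.65% as lower in the mutant, so that 1 called gene out of 9 is close to the share in the whole table. The count of 0 lower members was the same at an unadjusted p under 0.05 and with limma-voom.

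Letters of the genome show how the 9 members differ at the places by which beta-amylases are recognised. Beta-amylases carry a pair of PROSITE signatures, and the coding letters under the first one, read from the RefSeq TAIR10.1 genome, are shown for plastid enzymes and for members that lack it. Capitals mark the last codon of the stretch, which encodes the aspartate of the signature in BAM1 and BAM3 and a glycine in BAM4 and BAM8.
BAM1, chr3:8642280-8642306, plus strand: catcagtgtggtggcaacgttggtGAC
BAM3, chr4:9606726-9606752, minus strand: catcaatgtggaggaaacgtaggaGAC
BAM4, chr5:22552713-22552739, plus strand: cattcaaatatgcatttgtttggtGGG
BAM8, chr5:18355164-18355190, plus strand: catgagtatggagggaatgcatctGGG

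The first signature was found in the translated proteins of BAM1, BAM2, BAM3, BAM5 and BAM7. It was not found in BAM4, BAM6, BAM8 or BAM9. Of its 9 residues, BAM6 shared 7 with BAM3, BAM8 shared 4, BAM4 shared 2 and BAM9 shared 1, since the alignment of BAM9 held a gap there. BAM6, the nearest of these to the signature, kept the aspartate codon.

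The second signature surrounds a glutamate, and its codon, in capitals below, was kept in all 9 genes. The whole signature was found in BAM1, BAM5 and BAM6 and in none of the other 6 proteins. The letters are given for the most abundant member and for BAM9.
BAM3, chr4:9606261-9606293, minus strand: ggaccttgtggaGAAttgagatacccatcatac
BAM9, chr5:6227139-6227171, plus strand: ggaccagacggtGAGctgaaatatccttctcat

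The stretch of BAM3 shared 10 of 11 residues with that of BAM1, and the stretch of BAM9 shared 8 of 11. Over whole proteins aligned with MAFFT, the closest pairs were BAM5 and BAM6, with 62.8% identical residues, and BAM2 and BAM7, with 61.5%. BAM9 was the member least like the others, at 29.5% (with BAM6) to 36.1% (with BAM3). The lowest identity between members other than BAM9 was 35.4%, between BAM4 and both BAM7 and BAM8. The proteins ran from 498 residues in BAM5 to 703 in BAM8, with BAM9 at 536.

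The 250 bases before each annotated gene start were searched on both strands for 5 motifs of clock, light and brassinosteroid regulation. The G-box CACGTG, a letter sequence bound by many bZIP and bHLH factors, was in the promoters of BAM2 and BAM9 and in 6.58% of 26711 promoters of the same length. Both promoters are shown because they hold the same motif at nearly the same distance from the start. The part of this motif in the values of BAM9 and BAM2 was not tested. Capitals mark the G-box, which lies at -80 to -75 in BAM9 and at -76 to -71 in BAM2, counted back from the base before the start.
BAM9, chr5:6225706-6225955, plus strand: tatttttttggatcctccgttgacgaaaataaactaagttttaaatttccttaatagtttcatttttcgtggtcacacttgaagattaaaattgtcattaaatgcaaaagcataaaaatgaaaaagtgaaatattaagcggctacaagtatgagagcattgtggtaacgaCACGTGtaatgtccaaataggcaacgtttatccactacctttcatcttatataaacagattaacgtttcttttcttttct
BAM2, chr4:222039-222288, plus strand: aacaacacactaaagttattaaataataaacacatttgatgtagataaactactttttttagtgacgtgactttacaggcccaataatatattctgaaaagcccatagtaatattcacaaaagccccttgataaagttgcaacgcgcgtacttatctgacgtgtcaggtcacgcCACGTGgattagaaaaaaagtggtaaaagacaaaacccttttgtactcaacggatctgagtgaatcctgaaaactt

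The E-box CACATG was in the promoters of BAM3, BAM5 and BAM7 and in 11.2% of all promoters. The brassinosteroid response element, searched as CGTGTG and CGTGCG, was in that of BAM3 and in 6.72% of all. None of the 9 promoters held the evening element AAAATATCT, which was in 2.40% of all promoters, or the site AAAAATCT, which was in 6.74%. No hit in the 9 promoters overlapped another. A match of letters is a description of the window, and BAM1, BAM4, BAM6 and BAM8 held none of these motifs in it.

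The libraries rest on 14617043 to 26792712 reads each, recovered from the RPKM steps, and the 9 genes on 51 to 4672 reads per gene and library. Between libraries of the same genotype the chi-square of the recovered reads was 5.83 to 20.8 times its degrees of freedom, so none looked like a copy of another. The design text calls them biological replicates without saying how they were grown apart, and p-values therefore measure only the spread among these 6 libraries. The mutated genes were lower in the mutant, TOC1 at 16.8 ± 1.91 RPKM against 33.6 ± 1.49 RPKM in Col-0 and PRR5 at 1.12 ± 0.216 RPKM against 2.94 ± 0.0664 RPKM in Col-0 (SD, n = 3 each, limma adjusted p = 0.000187 and 0.00371). Fold changes below are log2 values of RPKM + 1, mutant over Col-0, a scale that understates the change of low genes.

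BAM9 (AT5G18670, chr5:6225956-6228195, TAIR10.1) stood at 25.4, 23.5 and 23.7 RPKM in the mutant libraries, against 14.3, 15.1 and 13.1 RPKM in the Col-0 libraries. Every mutant library was above every Col-0 library, and the gap between the means was larger than the range within either genotype. The log2 fold change was 0.74 (SE 0.0914, 95% interval 0.53 to 0.94, limma adjusted p = 0.000593). Among all tested genes 348, or 1.77%, had a log2 fold change at least as large, and 455 of the 769 genes called higher had a smaller one. BAM9 was called in 14 of 14 alternative settings, with log2 fold changes of 0.61 to 0.78 and adjusted p-values (limma) of 0.000122 to 0.00617. Its last 33 bases overlap TLP11, a gene on the opposite strand. TLP11 had 28.2 ± 1.90 RPKM in the mutant and 29.8 ± 0.738 RPKM in Col-0 (SD, n = 3 each, limma adjusted p = 0.671).

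**Figure D1:**
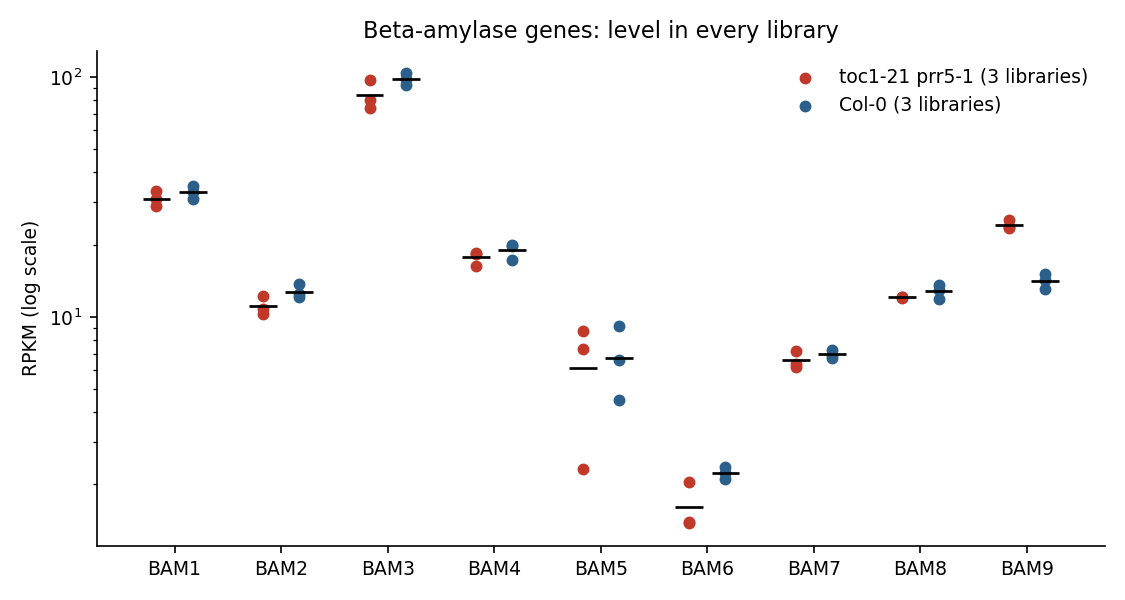
RPKM of each beta-amylase gene on a log axis, with 1 point per library and a bar at the mean of 3 libraries, toc1-21 prr5-1 left of Col-0. The points of BAM9 lie at 23.5 to 25.4 RPKM in the mutant and at 13.1 to 15.1 RPKM in Col-0, while those of BAM5 spread from 2.32 to 9.11 RPKM over both genotypes.

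Among the plastid enzymes, BAM3 (AT4G17090, chr4:9604962-9607402) stood at 96.8, 80.3 and 74.5 RPKM in the mutant libraries, against 92.1, 98.4 and 103.5 RPKM in the Col-0 libraries. The genotypes overlapped, since mutant replicate 1 lay within the Col-0 range and the other mutant libraries lay below it. The log2 fold change was -0.23 (SE 0.105, 95% interval -0.47 to 0.01). Leaving out single libraries moved it from -0.34 without mutant replicate 1 to -0.15 without mutant replicate 3 (limma adjusted p = 0.0961 and 0.520), with no call in any of these fits. This interval leaves room for a decrease of the size of -0.47 and for no change. BAM3 shares 13 bases with AT4G17085 on the opposite strand, which was lower in the mutant, at 8.89, 7.99 and 8.83 RPKM against 19.8, 20.1 and 16.9 RPKM in Col-0 (limma adjusted p = 0.000136). It also shares 518 bases with the long non-coding RNA gene AT4G06665, not analysed here. The kit is directional, but the strand setting of the counting was not given in the sources used here, and reads from a gene and its antisense partner cannot be told apart.

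BAM1 (AT3G23920, chr3:8641181-8644449), a plastid enzyme known for its part in guard cells and in stress, stood at 28.9, 33.5 and 30.9 RPKM in the mutant and at 35.2, 31.1 and 33.3 RPKM in Col-0. The ranges overlapped, and the log2 fold change was -0.09 (95% interval -0.30 to 0.11, limma adjusted p = 0.637). BAM2 (AT4G00490, chr4:222289-225131), also annotated as a plastid enzyme, stood at 10.8, 12.1 and 10.2 RPKM in the mutant and at 12.5, 12.0 and 13.7 RPKM in Col-0. Its log2 fold change was -0.19 (95% interval -0.42 to 0.04, limma adjusted p = 0.340), so BAM2 did not pass. BAM2 shares 104 bases with AT4G00500 on the opposite strand, which was not called either (limma adjusted p = 0.973).

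BAM6 (AT2G32290, chr2:13714516-13717002), annotated in the files to the chloroplast, was the least abundant member. It stood at 2.06, 1.39 and 1.38 RPKM in the mutant, against 2.36, 2.10 and 2.24 RPKM in Col-0. All mutant libraries were below all Col-0 libraries, but BAM6 did not pass the test, with a log2 fold change of -0.32 (SE 0.160, 95% interval -0.68 to 0.04, limma adjusted p = 0.285). It rests on 51 to 92 reads per library, and 693 of its bases overlap AT2G32280 on the opposite strand. AT2G32280 stood above BAM6 in every library, at 7.13, 7.71 and 7.07 RPKM in the mutant and at 7.22, 7.82 and 7.32 RPKM in Col-0 (limma adjusted p = 0.928). Non-overlap was common: BAM6 and BAM9 made 2 of 9 members, while the values of the genotypes did not overlap in 27.0% of all tested genes.

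BAM5 (AT4G15210, chr4:8666334-8669526), a cytosolic enzyme reported from the phloem, was the most variable member. It stood at 8.70, 7.31 and 2.32 RPKM in the mutant and at 6.62, 9.11 and 4.52 RPKM in Col-0. In both genotypes replicate 3 was the lowest library, and the genotypes overlapped over most of their range. The log2 fold change was -0.22 (SE 0.366, 95% interval -1.04 to 0.60, limma adjusted p = 0.806). Without mutant replicate 3 it was 0.26 (limma adjusted p = 0.630), so the data give no direction for BAM5.

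BAM4 (AT5G55700, chr5:22551734-22554964), a plastid protein without catalytic activity that is needed for normal starch breakdown in Arabidopsis leaves, stood at 16.3, 18.4 and 18.2 RPKM in the mutant and at 19.9, 17.2 and 19.8 RPKM in Col-0. Its log2 fold change was -0.10 (95% interval -0.31 to 0.12, limma adjusted p = 0.658). BAM4 shares 87 bases with Tic20-V on the opposite strand. Tic20-V stood at 48.3, 46.2 and 39.2 RPKM in the mutant and at 53.3, 54.5 and 43.4 RPKM in Col-0 (limma adjusted p = 0.443). BAM4 and BAM9 are both annotated as inactive in the files' UniProt descriptions, and of this pair BAM9 passed the test and BAM4 did not. On the log2 scale the ratio of BAM9 to BAM4 within a library was 0.46 ± 0.159 in the mutant and -0.42 ± 0.208 in Col-0 (SD, n = 3 each). BAM9 was thus above BAM4 in all 3 mutant libraries and below it in all 3 Col-0 libraries, with an exact permutation p of 0.1 (two-sided), the smallest that 3 against 3 libraries can give. This ratio was chosen after the values were seen and rests on the same BAM9 values as its limma test.

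The nuclear members BAM7 and BAM8 carry a BZR1-type DNA-binding domain in front of the amylase domain and are known as transcription factors. BAM7 (AT2G45880, chr2:18878518-18882995) stood at 6.33, 6.17 and 7.21 RPKM in the mutant and at 7.26, 6.72 and 6.95 RPKM in Col-0. BAM8 (AT5G45300, chr5:18353525-18356888) stood at 12.1, 12.1 and 12.0 RPKM in the mutant and at 13.6, 11.8 and 13.0 RPKM in Col-0. Both pairs of ranges overlapped. The log2 fold changes were -0.08 for BAM7 (95% interval -0.32 to 0.17) and -0.08 for BAM8 (95% interval -0.29 to 0.14), with limma adjusted p-values of 0.768 and 0.731.

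**Figure D2:**
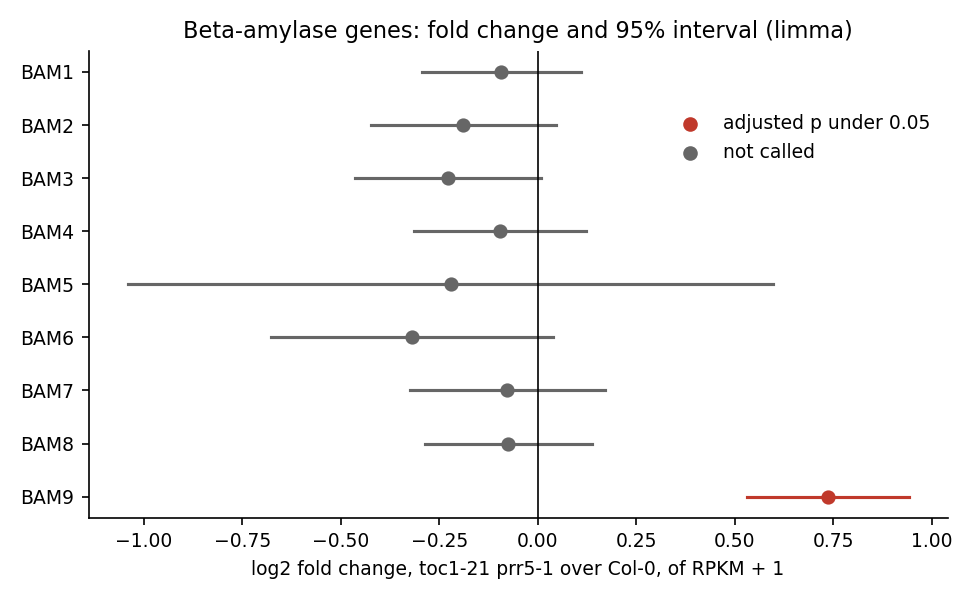
Log2 fold change of RPKM + 1, toc1-21 prr5-1 over Col-0, for each beta-amylase gene, with 95% intervals from limma over 3 against 3 libraries. The interval of BAM9 runs from 0.53 to 0.94, and those of the other 8 genes include 0, the widest being that of BAM5 (-1.04 to 0.60).

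Over the 9 members, 8 had a log2 fold change below 0, against 52.3% of all tested genes, and the median was -0.10, against -0.01 over all tested genes. None of these 8 passed the test. No interval of BAM1, BAM4, BAM7 or BAM8 reached beyond -0.32 or 0.17, while those of BAM5 and BAM6 were wider.

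The order of the levels, which RPKM allows because it is scaled to length, changed in 1 place. In the mutant the order was BAM3, BAM1, BAM9, BAM4, BAM8, BAM2, BAM7, BAM5 and BAM6. In Col-0 it was BAM3, BAM1, BAM4, BAM9, BAM8, BAM2, BAM7, BAM5 and BAM6. In the mutant the ranges of BAM8 and BAM2 overlapped, as did those of BAM7 and BAM5. In Col-0 the ranges of BAM9 and BAM8, of BAM8 and BAM2, and of BAM7 and BAM5 overlapped. BAM9 thus lay apart from both of its neighbours in the mutant and overlapped BAM8 in Col-0.

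The summed RPKM of the 9 genes was 207.4, 195.0 and 180.4 in the mutant libraries and 203.7, 203.6 and 210.1 in the Col-0 libraries. The sums overlapped, and the means of 194.3 ± 13.6 and 205.8 ± 3.71 RPKM (SD, n = 3 each) in mutant and Col-0 did not differ beyond this spread (exact permutation test, two-sided, p = 0.3). BAM9 made up 12.3%, 12.1% and 13.1% of the sum in the mutant, against 7.01%, 7.40% and 6.23% in Col-0. Its mean share was 5.60 percentage points higher, with an exact permutation p of 0.1 (two-sided), the smallest possible here. This share rests on the same BAM9 values as its limma test. BAM3 made up 46.7%, 41.2% and 41.3% in the mutant, against 45.2%, 48.3% and 49.3% in Col-0, and these shares overlapped (exact permutation test, two-sided, p = 0.2). The share of BAM6 was 0.823% ± 0.148 in the mutant and 1.09% ± 0.0668 in Col-0 (SD, n = 3 each, exact permutation p = 0.1). For the other 6 genes the exact permutation p lay between 0.3 and 1. Shares of 1 library add up to 100%, so those of different genes are not independent.

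**Figure D3:**
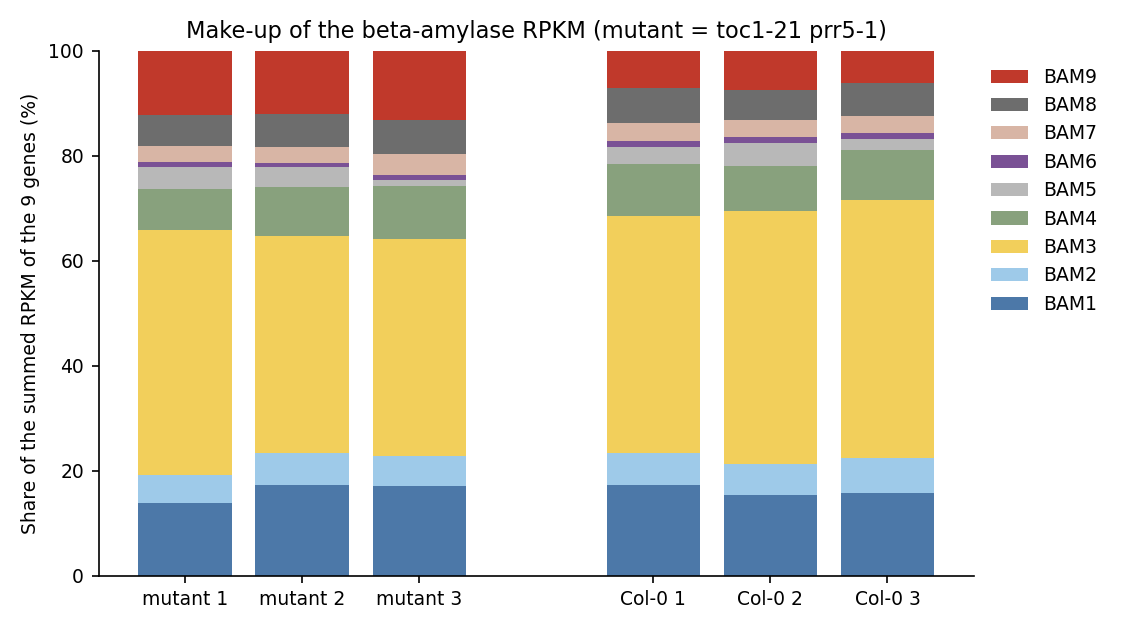
Share of each beta-amylase gene in the summed RPKM of the 9 genes, in percent, with 1 bar per library, the 3 toc1-21 prr5-1 libraries left of the 3 Col-0 libraries. The segment of BAM9 at the top takes 12.1% to 13.1% in the mutant and 6.23% to 7.40% in Col-0, and that of BAM3 is the largest in every library.

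Within a library the log2 ratio of BAM9 to BAM3 RPKM was -1.78 ± 0.139 in the mutant and -2.79 ± 0.165 in Col-0 (SD, n = 3 each), a difference of 1.01. The log2 ratio of BAM9 to BAM1 was -0.36 ± 0.165 in the mutant and -1.23 ± 0.162 in Col-0 (SD, n = 3 each), a difference of 0.87. These ratios do not depend on the depth of a library and were chosen after the values were seen. Neither overlapped between the genotypes, with an exact permutation p of 0.1 each, the smallest possible. Both ratios rest on the same BAM9 values as its limma test.

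The called share among neighbouring genes differed along the chromosomes. Among the 50 nearest tested genes on each side of BAM9, 1 of 100 was called, and likewise 1 of 100 around BAM8. Around BAM3, 29 of 100 were called, 4 higher and 25 lower in the mutant, and around BAM1 20 of 100 were called. The other members lay between, with 5 of 90 around BAM2 near the end of its chromosome and 11 of 100 around BAM7, against 10.6% of all tested genes. The nearest tested genes on the 2 sides of BAM9 were TLP11, given above, and AT5G18661, at 1.92 ± 0.416 RPKM in the mutant and 2.28 ± 0.729 RPKM in Col-0 (SD, n = 3 each, limma adjusted p = 0.740). Neither was called. Whether the calls around BAM3 and BAM1 bear on their own values was not tested.

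**Figure D4:**
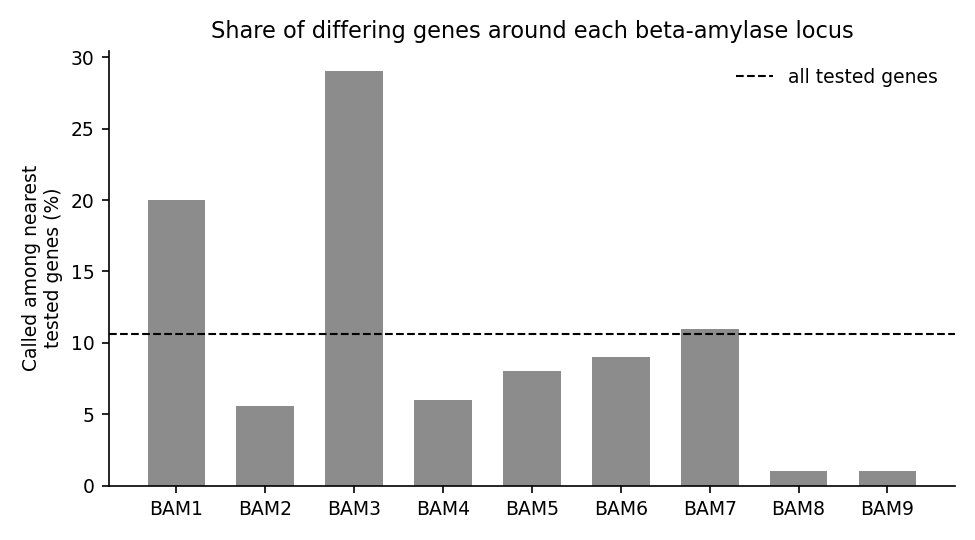
Percent of genes called in toc1-21 prr5-1 against Col-0 among the nearest tested genes (up to 50 on each side) of each beta-amylase locus, with the share over all tested genes (10.6%) as a dashed line. The bars of BAM3 (29%) and BAM1 (20%) are the highest, and those of BAM8 and BAM9 (1%) the lowest.

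Other genes of starch breakdown went both ways. Of the 18 tested of 19 listed genes, 2 were higher and 8 were lower while 8 did not pass, and the median log2 fold change was -0.36. Over all tested genes 3.90% were called higher and 6.65% lower, with a median of -0.01, so the whole table leaned lower too, but less. Of the tested genes of the list 55.6% were called, against 10.6% over all tested genes. Log2 fold changes below 0 made up 72.2% of the list, against 52.3% over all tested genes. The remaining gene, the alpha-amylase AMY1, was below the filter. AMY3, the plastid alpha-amylase whose activity BAM9 is known to raise, was higher in the same seedlings as BAM9, at 22.7, 27.4 and 21.8 RPKM in the mutant, against 15.8, 14.3 and 17.1 RPKM in Col-0. Its log2 fold change was 0.57 (limma adjusted p = 0.00901), and the values of the genotypes did not overlap. AMY2, a further alpha-amylase, averaged 6.57 ± 0.255 RPKM in the mutant and 4.17 ± 0.940 RPKM in Col-0 (SD, n = 3 each, limma adjusted p = 0.0346).

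The debranching enzyme ISA3 averaged 17.5 ± 0.430 RPKM in the mutant and 27.8 ± 4.25 RPKM in Col-0, with a log2 fold change of -0.63 and a limma adjusted p of 0.00625. Lower too were the glucan phosphatases LSF2 (15.2 ± 0.669 RPKM in the mutant, 22.1 ± 1.69 RPKM in Col-0) and SEX4 (18.2 ± 2.31 RPKM in the mutant, 27.7 ± 4.47 RPKM in Col-0). The glucanotransferase DPE1, which works on maltotriose, stood at 20.9 ± 0.595 RPKM in the mutant and 28.8 ± 0.303 RPKM in Col-0. DPE2, the cytosolic glucanotransferase that uses maltose, stood at 31.1 ± 1.14 RPKM in the mutant and 40.1 ± 4.15 RPKM in Col-0. The plastid phosphorylase PHS1 had 36.5 ± 2.85 RPKM in the mutant and 51.4 ± 4.04 RPKM in Col-0, and the dikinase PWD had 46.1 ± 1.93 and 61.2 ± 7.14 RPKM in mutant and Col-0. LESV, a starch-binding protein, had 9.35 ± 0.760 RPKM in the mutant and 13.1 ± 1.41 RPKM in Col-0 (SD, n = 3 each for all these values). Their limma adjusted p-values lay between 0.00554 for DPE1 and 0.0410 for DPE2.

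The calls of AMY3, ISA3, LSF2, DPE1 and PHS1 held in 14 of 14 alternative settings, while those of PWD, SEX4, AMY2, DPE2 and LESV were lost in 4 to 8 of them, and that of DPE2 also with the replicate number as a block. Leaving out single libraries brought the count of lower genes to 4 when Col-0 replicate 1 or either of mutant replicates 2 and 3 was left out, and to 5 without mutant replicate 1. The count of higher genes became 1 without any single library other than Col-0 replicate 3. Of the most abundant genes that did not pass, the dikinase GWD1 had 53.9 ± 2.01 RPKM in the mutant and 70.7 ± 11.5 RPKM in Col-0 (limma adjusted p = 0.0725), and the cytosolic phosphorylase PHS2 had 45.1 ± 2.41 and 59.5 ± 9.19 RPKM in mutant and Col-0 (limma adjusted p = 0.0679). Both were called lower with the replicate block (limma adjusted p = 0.0394 for GWD1 and 0.0325 for PHS2), with limma-voom (adjusted p = 0.0390 and 0.0361) and without Col-0 replicate 2 (limma adjusted p = 0.00974 and 0.00540). The glucose transporter pGlcT had 65.1 ± 2.81 RPKM in the mutant and 72.2 ± 1.21 RPKM in Col-0, and the starch-binding protein ESV1 had 23.4 ± 1.77 and 19.7 ± 1.08 RPKM in mutant and Col-0 (SD, n = 3 each for these 4 genes, limma adjusted p = 0.286 and 0.166). LSF1 went the other way, at 9.61 ± 0.523 RPKM in the mutant and 7.27 ± 0.343 RPKM in Col-0 (SD, n = 3 each, limma adjusted p = 0.0550). It was called higher with median scaling (limma adjusted p = 0.0367), in limma without a trend (adjusted p = 0.0462) and with limma-voom (adjusted p = 0.0389). LSF1 is named here after its values were seen.

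**Figure D5:**
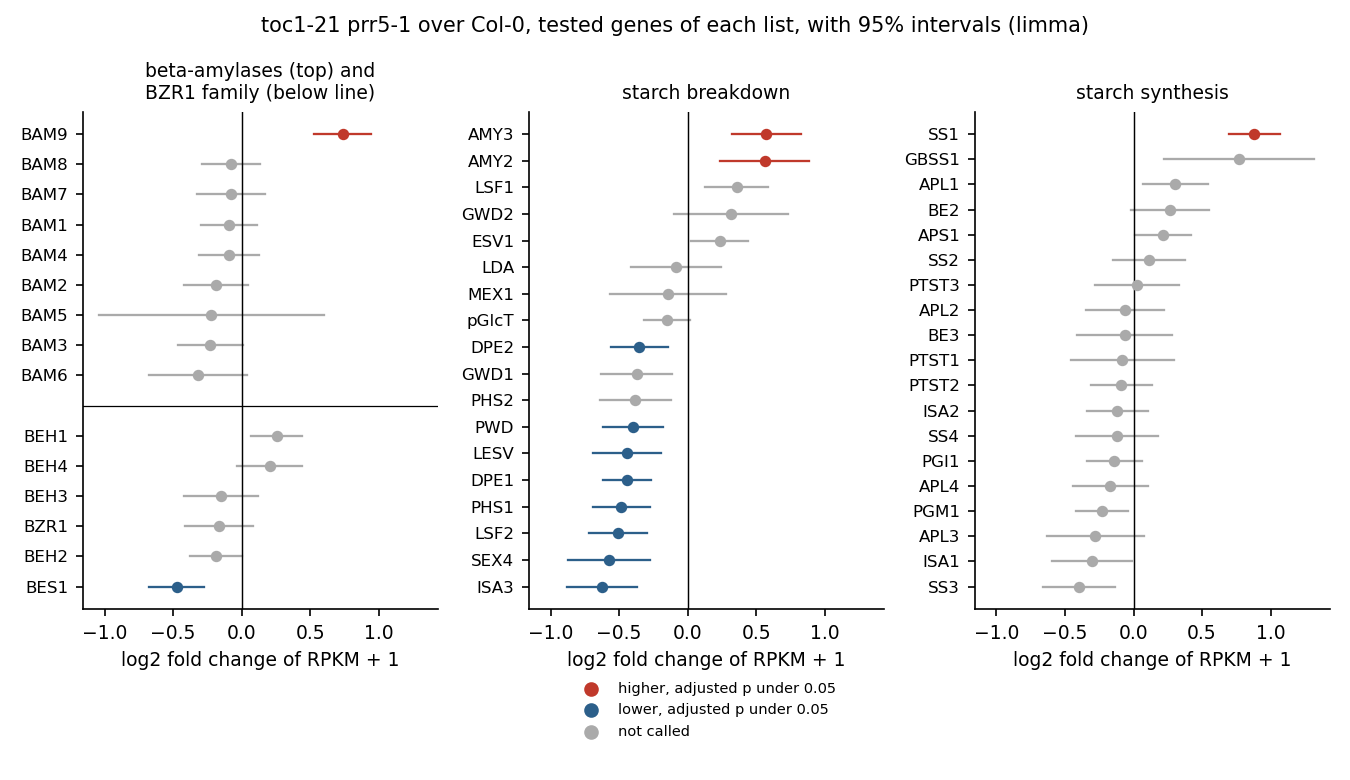
Log2 fold change of RPKM + 1, toc1-21 prr5-1 over Col-0, with 95% intervals from limma, for the tested beta-amylase, BZR1 family, starch breakdown and starch synthesis genes, sorted by fold change within each list. BAM9 and SS1 stand alone as called genes among the beta-amylases and the starch synthesis list, while 10 of the 18 starch breakdown genes were called.

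Of the 19 tested of 20 starch synthesis genes, 1 was higher, none was lower in limma, and the median log2 fold change was -0.08. This 1 called gene of 19 lies below the 10.6% called over all tested genes. The gene below the filter was APS2. At an unadjusted p under 0.05, 4 genes were higher and 3 lower, and limma-voom called 2 higher and 1 lower. GBSS1, the granule-bound starch synthase, had 21.8 ± 4.69 RPKM in the mutant and 12.9 ± 5.50 RPKM in Col-0 (SD, n = 3 each, limma adjusted p = 0.0824). It was called higher with the replicate block (limma adjusted p = 0.00368), with limma-voom (adjusted p = 0.0244) and without Col-0 replicate 1 (limma adjusted p = 0.00703), and is named here after its values were seen. SS3 went the other way, at 15.6 ± 0.711 RPKM in the mutant and 21.0 ± 3.38 RPKM in Col-0 (SD, n = 3 each, limma adjusted p = 0.0636). SS3 was called lower with limma-voom (adjusted p = 0.0265) and without Col-0 replicate 2 (limma adjusted p = 0.0174). ISA1, at a limma adjusted p of 0.199, was also called lower without Col-0 replicate 2 (limma adjusted p = 0.0475). Both are named after their values were seen. The starch synthase SS1 was the higher one, at 56.0, 58.4 and 53.4 RPKM in the mutant and 30.7, 27.9 and 31.4 RPKM in Col-0 (log2 fold change 0.88, limma adjusted p = 0.000103). The 4 most abundant genes of this list did not pass. APS1, the small subunit of ADP-glucose pyrophosphorylase, had 143.2 ± 11.5 RPKM in the mutant and 122.9 ± 8.37 RPKM in Col-0, and APL1, a large subunit, had 111.3 ± 8.70 and 90.2 ± 11.3 RPKM in mutant and Col-0 (SD, n = 3 each, limma adjusted p = 0.193 and 0.115). The isomerase PGI1 had 64.3 ± 5.78 RPKM in the mutant and 70.8 ± 3.05 RPKM in Col-0, and the mutase PGM1 had 61.9 ± 2.22 and 72.7 ± 5.70 RPKM in mutant and Col-0 (SD, n = 3 each, limma adjusted p = 0.425 and 0.137).

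The BZR1 family shares its DNA-binding domain with BAM7 and BAM8. Of its 6 genes, all tested, 1 was lower and none was higher in limma or in limma-voom, with a median log2 fold change of -0.16, beside 10.6% called (6.65% lower) over all tested genes. At an unadjusted p under 0.05, 1 gene was higher. BES1, a transcription factor of brassinosteroid signalling, averaged 80.7 ± 6.76 RPKM in the mutant and 112.3 ± 7.48 RPKM in Col-0 (SD, n = 3 each, log2 fold change -0.47, limma adjusted p = 0.00778). BZR1 itself had 21.3 ± 3.34 RPKM in the mutant and 23.8 ± 0.397 RPKM in Col-0 (SD, n = 3 each, limma adjusted p = 0.455). BEH2 had 38.1 ± 2.77 RPKM in the mutant and 43.5 ± 1.63 RPKM in Col-0, BEH1 had 22.3 ± 0.838 and 18.5 ± 0.466 RPKM, and BEH4 had 16.5 ± 1.64 and 14.2 ± 1.15 RPKM in mutant and Col-0 (SD, n = 3 each), with limma adjusted p-values of 0.226, 0.0885 and 0.311.

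The 3 tested genes whose log2(RPKM + 1) was most like that of BAM9 over the 6 libraries were IAA29, AT1G52220 and PGR5, at a Pearson r of 0.999, 0.998 and 0.998. They share the libraries and the genotype difference with BAM9. IAA29, an Aux/IAA protein, averaged 5.53 ± 0.361 RPKM in the mutant and 2.79 ± 0.253 RPKM in Col-0. AT1G52220, described in the files as a thylakoid curvature protein, averaged 121.1 ± 4.41 RPKM in the mutant and 68.1 ± 5.35 RPKM in Col-0. PGR5, a protein of cyclic electron flow, averaged 190.3 ± 7.90 RPKM in the mutant and 106.2 ± 7.90 RPKM in Col-0 (SD, n = 3 each). For BAM3 the likest genes were HB2, a non-symbiotic haemoglobin, AT1G30755 and AT5G62360, at r of 0.992, 0.990 and 0.987. All 3 had their highest mutant value in replicate 1 and their highest Col-0 value in replicate 3, as BAM3 had. They were picked for their likeness to BAM3 over these same 6 libraries, so this shared order is no separate result.

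In bulk samples of whole seedlings, fewer cells of a type and less RNA per cell cannot be told apart. Over all tested genes 10.6% were called, so 1 call in a list of 7 or 8 markers is close to that share. Of 8 phloem markers 1 was called, PP2-A1, which was lower in the mutant. Log2 fold changes were below 0 for 7 of the 8 and above 0 for 1, against 52.3% below 0 over all tested genes. At an unadjusted limma p under 0.05, 2 phloem markers were lower. OPS was called lower without Col-0 replicate 3 (limma adjusted p = 0.0445). The 8 phloem markers summed to 214.2 to 226.8 RPKM in the mutant and 308.2 to 321.8 RPKM in Col-0. Without PP2-A1 the sum was 144.0 ± 8.69 RPKM in the mutant and 158.7 ± 11.6 RPKM in Col-0 (SD, n = 3 each). Of 7 guard cell markers 1 was called, GC1, which was higher in the mutant, while 4 had a log2 fold change below 0 and 3 above. FAMA was called lower with limma-voom (adjusted p = 0.0494), and MYB60 was called lower without Col-0 replicate 2 (limma adjusted p = 0.0495). The sum of the 7 guard cell markers was 110.7 to 133.7 RPKM in the mutant and 92.9 to 104.0 RPKM in Col-0. Without GC1 the sum was 35.6 ± 4.50 RPKM in the mutant and 41.1 ± 3.73 RPKM in Col-0 (SD, n = 3 each). Of 5 mesophyll and shoot markers 2 were called, RCA and PSBO1, both higher in the mutant. Whether 2 of 5 differs from the 10.6% over all tested genes was not tested. The call of RCA held in 10 of 14 alternative settings and that of PSBO1 in 13 of 14. GAPA had 1354 ± 59.0 RPKM in the mutant and 1744 ± 105.3 RPKM in Col-0, and CA1 had 1468 ± 97.6 RPKM in the mutant and 1708 ± 53.4 RPKM in Col-0 (SD, n = 3 each). Both lay lower in every mutant library without passing (limma adjusted p = 0.0678 and 0.283). The values of the genotypes did not overlap in 27.0% of all tested genes. GAPA was called lower with limma-voom (adjusted p = 0.00946) and in limma without a trend (adjusted p = 0.0491). The 5 markers had sums of 17216 to 18649 RPKM in the mutant and 15630 to 17113 RPKM in Col-0. Of 6 root markers none was called by limma, while 5 had a log2 fold change below 0 and 1 above. The root sums were 1254 to 1488 RPKM in the mutant and 1539 to 2304 RPKM in Col-0. Most of each sum was PYK10, at 1211 to 1443 RPKM in the mutant and 1500 to 2252 RPKM in Col-0 (limma adjusted p = 0.0775). PYK10 had the list's 1 unadjusted p under 0.05, and it was called lower with limma-voom (adjusted p = 0.0201), with the replicate block (adjusted p = 0.0393) and without Col-0 replicate 3 (adjusted p = 0.0164). Without PYK10 the root sums overlapped, at 43.9 ± 1.64 RPKM in the mutant and 45.7 ± 6.76 RPKM in Col-0 (SD, n = 3 each). The sums without PP2-A1, GC1 and PYK10 were chosen after the data were seen. No marker was at 0 in any library, and the part of cell makeup in the values of BAM9, BAM5 or BAM1 was not tested.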

How the data were processed

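The authors' deposited files hold RPKM values for 33602 genes in each of 6 libraries, per the file headers. The submitters' processing notes name the TAIR10 build and the tools edgeR, TopHat and TopHat2. Versions, roles, the read counter and how it treated strand and multiply matching reads were not given in the sources used here. Whole reads were recovered from the RPKM steps for 25139 of 25139 genes above 0 (tolerance 0.001 reads), summing to 99.51% to 99.56% of each depth. RPKM is not a count, so the main test was limma 3.58.1 (R 4.3.3) on log2(RPKM + 1), its variance prior following mean expression, for genes that reached 1 RPKM in 3 or more libraries, genotype as the only term and Benjamini-Hochberg adjustment over 19710 genes. Sums and shares were compared by exact permutation tests over libraries (scipy 1.17.1). Proteins were translated from RefSeq coding sequences of TAIR10.1 and aligned with MAFFT 7.526. Loci matched its gene table in 97.7% of cases, including 9 of 9 members. Other pseudocounts, filters, scaling, left-out libraries, a replicate block, no trend and limma-voom on recovered reads were tried.

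The text names all 9 beta-amylase genes and every called gene of the starch breakdown, starch synthesis and BZR1 lists, with up to 4 abundant uncalled ones. Also named are GBSS1, SS3, ISA1 and LSF1, cell markers, the mutated genes, the 3 genes most like BAM9 and BAM3, the neighbours of BAM9 and genes that overlap members. The members and lists were chosen with earlier results of these data known.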

Additional observations from a re-analysis of the deposited data

How the results depend on the processing

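BAM9 was called higher, and no other beta-amylase gene was called, in the main setting and in all 14 alternatives. The log2 fold change of BAM5 ran from -0.52 to 0.26 without single libraries and was positive, at 0.26, without toc1-21 prr5-1 replicate 3; the 8 other members kept their sign throughout. BAM6 was dropped by the filter at 5 RPKM and so has 13 alternatives. Leaving out single libraries gave 1340 to 2250 called genes over the whole table, against 2080, with 1340 without mutant replicate 1 and 1361 without either Col-0 replicate 1 or mutant replicate 2. It gave for starch breakdown 4 to 10 lower and 1 to 2 higher genes, against 8 and 2. For starch synthesis it gave 1 to 2 higher genes (2 without Col-0 replicate 1) and 0 to 2 lower genes (2 without Col-0 replicate 2), against 1 and 0. With no filter on low values the starch breakdown list had 5 lower and 1 higher. It had 3 higher with median scaling (8 lower), in limma without a trend (6 lower) and with limma-voom (10 lower). The starch synthesis list had 2 higher with the replicate block and with limma-voom, and 1 lower with limma-voom. The summed RPKM of the family differed by -5.61%, mutant over Col-0 (-8.81% to -2.23% without single libraries), and by 2.41% without BAM3. The share of BAM9 was 5.60 points higher (5.28 to 5.86 without single libraries) and 8.82 points higher without BAM3. The causes were not tested.

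Between mutant and Col-0 libraries of the same number, deviations from the group means had correlations of -0.03, 0.15 and 0.04. For mutant replicates 2 and 3, but not for replicate 1, the Col-0 library of the same number was the most correlated one. The replicate numbers were not taken as pairs in the main test, and whether they mark pairs is not settled by these values. With the replicate block 2114 genes were called, and BAM9 had an adjusted p of 0.000968 (limma). The 51 to 92 reads behind BAM6 limit its precision, and 3 libraries per genotype limit every permutation p to 0.1 or more.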
